A study of Rattus norvegicus with 20 samples.

Results

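The comparison described here sets the livers of 3 rats given the highest dose of isodecyl diphenyl phosphate (IDDP) against the livers of 5 rats given the vehicle, across every non-control probe set of the array. IDDP is an aryl phosphate ester used as a flame retardant and plasticiser. The members are 8 of the 20 arrays of the series, chosen by the dose in their titles: the 3 arrays at 1054.2 mg/kg body weight, which equals 2.7 mmol/kg, and the 5 arrays at 0 mg/kg. All were male Harlan Sprague-Dawley rats dosed by oral gavage in corn oil on 4 consecutive days, with the liver taken on day 5. The vehicle rats received corn oil alone, so every rat in the comparison had corn oil, and the other 12 arrays held 3 rats at each of 66, 132, 263.6 and 527.1 mg/kg. Pieces of the left lobe gave the RNA, 1 array per rat, and the age of the rats and the hour at which each liver was taken are not stated in the labels used here.

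The liver meets a lipophilic foreign compound with a layered set of proteins. The nuclear receptors CAR and PXR switch on cytochrome P450 enzymes, conjugating enzymes and efflux pumps, and NRF2, the sensor of electrophiles, switches on glutathione synthesis, quinone reduction and NADPH supply through the antioxidant response element in its target promoters. The same organ makes and stores fat, carries amino acids and organic anions in from the blood, and runs a circadian clock in which BMAL1, paired with CLOCK or NPAS2, drives the Per, Cry, Nr1d and PAR bZIP genes through E-boxes. All values below are log2 intensities or differences of them, so a difference of 1 is a doubling.

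The levels of hepatocyte markers came first. Alb, the gene of serum albumin, read 15.35, 15.30, 15.35, 15.34 and 15.34 in the vehicle rats and 15.34, 15.32 and 15.34 at 1054.2 mg/kg. These values lie at the top of the arrays' scale, where a probe set can show little of a change, so their steadiness says only that Alb was very bright in every rat. Of the 20 measured hepatocyte markers 0 passed the test (limma), beside 1 at an unadjusted p under 0.05. Across all probe sets the 8 arrays correlated with each other at r between 0.986 and 0.996. An index of RNA degradation, the excess of the 3' over the 5' control signals for actin and GAPDH, stood at 1.24, 1.74, 1.89, 1.84 and 1.47 in the vehicle rats and 1.74, 1.74 and 1.55 at the highest dose. The 2 groups overlapped in this index. The labels list the rats as separate animals, so the p-values below measure the spread between rats.

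At 1054.2 mg/kg 1024 of 31042 probe sets differed from vehicle at an adjusted p under 0.05, which is 3.30% of those tested (limma, Benjamini-Hochberg over all probe sets). Of these, 576 were higher, 1.86%, and 448 were lower, 1.44%, and they stood for 751 named genes. Most of the changes were modest: 281 probe sets rose and 237 fell by at least 1.5-fold, 83 rose and 60 fell by at least 2-fold, and 8 rose and 10 fell by at least 4-fold. Bright probe sets passed more often than dim ones: 10.9% of those with a vehicle mean of 11 or more, against 0.499% of those under 5. The median change over all probe sets was -0.01.

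**Figure D1:**
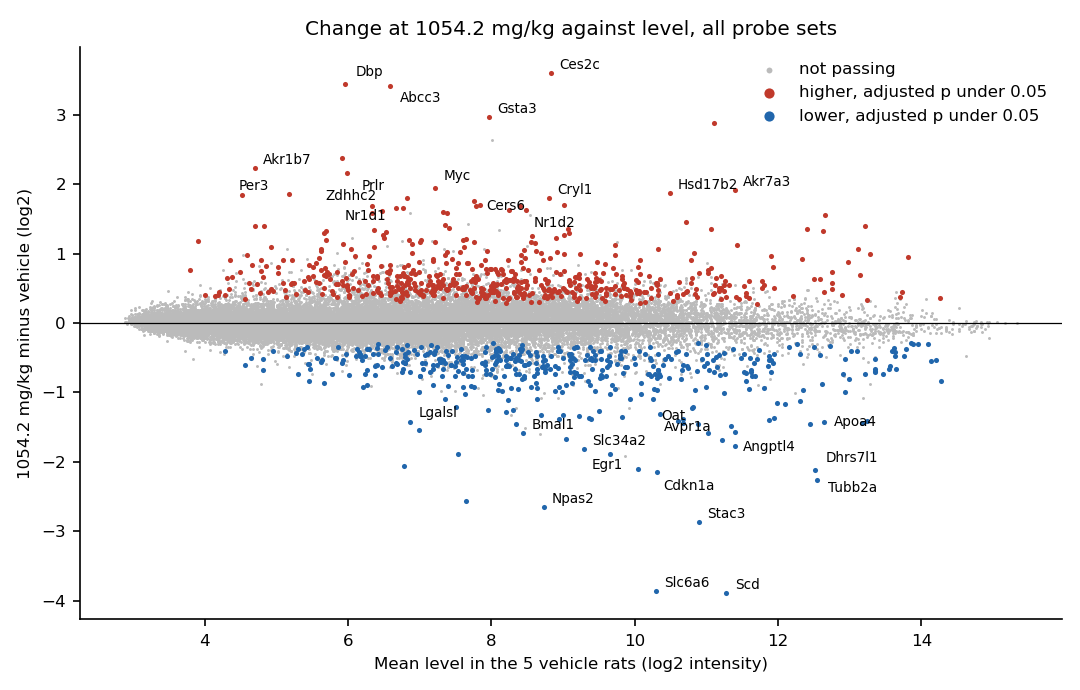
Each point is 1 of 31042 probe sets, with its mean log2 intensity in the 5 vehicle rats on the horizontal axis and the difference of the means, 1054.2 mg/kg minus vehicle, on the vertical axis. Red and blue points passed an adjusted p of 0.05 as higher or lower; Ces2c at 3.60 was the largest rise and Scd at -3.89 the largest fall, and the 30 labelled genes passed in every fit without 1 array.

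The count depended on which rats were in the fit. It was 405 without rat 3 of the highest dose, 529 without rat 2, 1069 without rat 1, and 647 without vehicle rat 4. Over the 1024 probe sets that passed, rat 1 lay nearest to the vehicle mean of the 3 dosed rats in 529, rat 2 in 273 and rat 3 in 222, and the median distance from the vehicle mean was 0.49, 0.62 and 0.62 in that order. A core of 293 probe sets, 0.944% of those tested, passed with all arrays and in each of the 8 fits that left out 1 of them; 167 of these rose and 126 fell, and they stood for 230 genes. The groups did not overlap in 970 of the 1024 probe sets that passed, beside 12.4% of all probe sets. The genes named below passed in every fit unless the text says otherwise.

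For groups of genes, each gene was read from its brightest probe set, and 4.83% of 14217 genes passed on that basis, 2.69% higher and 2.14% lower. Those shares are the background for each list below. The lists were chosen with earlier results of these data known, so their shares are descriptions and no test.

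**Figure D2:**
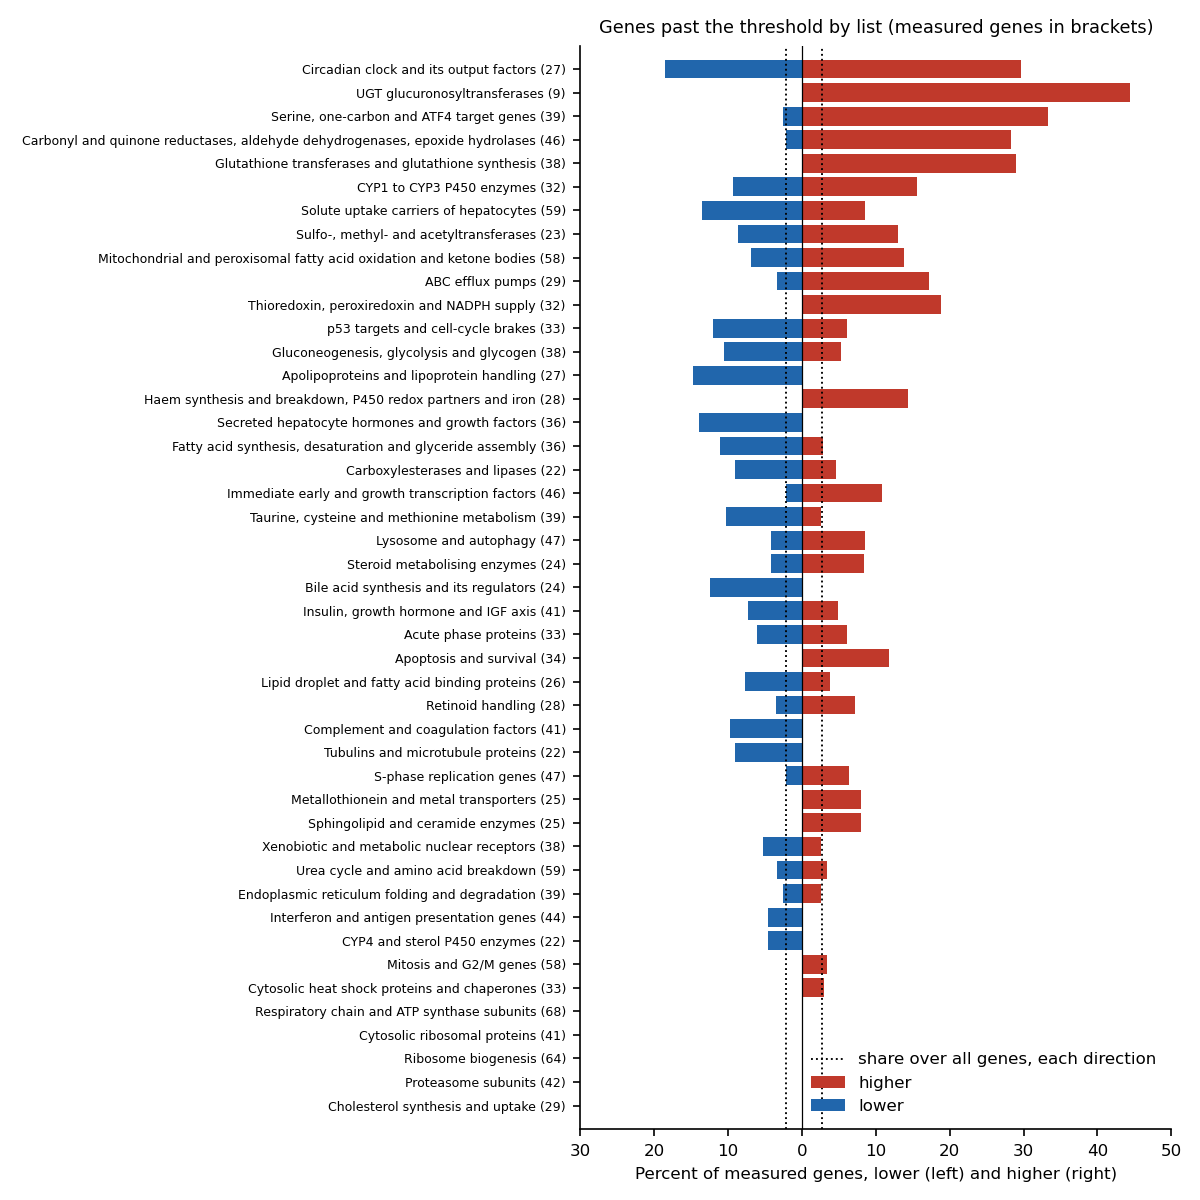
Bars give the percentage of each gene list that passed an adjusted p of 0.05 at 1054.2 mg/kg against vehicle, to the right for genes that were higher and to the left for genes that were lower, with the number of measured genes in brackets. The dotted lines mark the shares over all genes, 2.69% higher and 2.14% lower; the clock list, with 48.1% passing, leads, and 5 lists at the foot have no member that passed.

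Because the groups of genes that moved include targets of factors with known binding letters, the RefSeq promoter table of the rat assembly GRCr8 was searched from 250 bases before to 50 after each gene's start, on both strands, for the core of the antioxidant response element (TGACNNNGC), the E-box (CACGTG, which reads the same on both strands) and the D-box (TTATGTAA). Of 14217 measured genes, 11733 had an entry. Among the 50 genes with the largest or most certain changes, 44 had an entry and 9 held an antioxidant response element core or an E-box before the start. For scale, 14.4% of all genes with an entry held the core and 8.92% the E-box somewhere in the whole window. The share of all genes with either motif before the start is not given. Whether 9 of 44 is above background therefore cannot be told. Those 9 are shown with up to 20 bases on each side, in the direction of the gene, with the match in capitals; a core on the opposite strand appears as its reverse complement. The first 4 genes rose and the last 5 fell, so that the letters of both directions stand side by side.
Gsta3: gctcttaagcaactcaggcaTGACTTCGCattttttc
Htatip2: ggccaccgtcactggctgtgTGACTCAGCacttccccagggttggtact
Cers6: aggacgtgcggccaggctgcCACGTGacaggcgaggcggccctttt
Cyp3a23-3a1: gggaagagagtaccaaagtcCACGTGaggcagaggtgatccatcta
Scd: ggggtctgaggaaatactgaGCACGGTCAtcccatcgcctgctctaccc
Slc6a6: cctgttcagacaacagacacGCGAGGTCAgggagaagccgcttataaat
Cdkn1a: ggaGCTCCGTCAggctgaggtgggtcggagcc
Plin2: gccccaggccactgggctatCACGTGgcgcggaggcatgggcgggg
Cimap1b: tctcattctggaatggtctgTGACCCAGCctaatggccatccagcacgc

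The stretch for Gsta3 lies at chr9:31154952-31154988 on the plus strand, with its core 17 bases before the start, and that for Htatip2 at chr1:108610049-108610097 on the plus strand, 126 bases before the start. Cers6 is at chr3:74038791-74038836 on the plus strand, with the E-box 50 bases before the start, and Cyp3a23-3a1 at chr12:14398881-14398926 on the minus strand, with the E-box 103 bases before it. Among the genes that fell, Scd is at chr1:253231830-253231878 on the minus strand, with its core 127 bases before the start. Slc6a6 is at chr4:125752381-125752429 on the plus strand, 101 bases before the start, and Cdkn1a at chr20:7150682-7150713 on the plus strand, 247 bases before it. Plin2 is at chr5:106229060-106229105 on the minus strand, 67 bases before the start, and Cimap1b at chr7:122327067-122327115 on the minus strand, 174 bases before it.

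Over all genes with an entry, the antioxidant response element core was present in 14.4%. It was present in 15.4% of the 325 genes that rose and in 15.1% of the 245 that fell. The E-box was present in 8.92% of all genes, in 44 of the 325 that rose (13.5%) and in 18 of the 245 that fell (7.35%). In the genes that also passed in every fit without 1 array, the E-box was present in 10.8% of 102 higher genes and 9.21% of 76 lower genes, and the antioxidant response element core in 17.6% and 19.7%. The D-box was present in 0.528% of all genes, with 1 match among the genes that rose (0.308%) and 1 among those that fell (0.408%). These shares are descriptions of letters in a window of this length, with no test, and they say nothing of binding.

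Phase I enzymes, which hydrolyse or oxidise a compound, gave the largest rise of all. Ces2c, a liver carboxylesterase that cleaves esters, read 8.76, 8.92, 8.75, 8.87 and 8.82 in the vehicle rats and 12.08, 12.36 and 12.84 at 1054.2 mg/kg. Every dosed rat lay more than 3 log2 units above every vehicle rat, a 12.2-fold rise (difference 3.60, SE 0.17, adjusted p 1.65e-10, limma). It stood alone in its list: of 22 measured carboxylesterases and lipases 1 rose and 2 fell, and the falls of Ces1d (-0.48) and Lipc (-0.52), the hepatic lipase, were lost without rat 3, with adjusted p 0.113 and 0.0977, and that of Ces1d also without rat 2 (0.072). Without rat 3 the list kept 1 gene, and without rat 1 it held 5.

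Among CYP1 to CYP3 enzymes, which carry most drug oxidation, 5 of 32 rose and 3 fell. Cyp3a23-3a1, the classical PXR target of the rat whose E-box is shown above, read 13.27, 13.11, 13.04, 13.37 and 13.32 in vehicle and 14.50, 14.65 and 14.72 at the highest dose. That was a 2.64-fold rise from an already bright signal (1.40, SE 0.11, adjusted p 2.36e-07). Cyp3a18 rose 2.08-fold (adjusted p 0.000143) and Cyp2j4, an arachidonic acid epoxygenase, 1.62-fold (adjusted p 0.00247). A pair of abundant enzymes moved the other way. Cyp2c11, the male-specific P450 of rat liver, read 14.45, 14.20, 14.23, 14.28 and 14.25 in vehicle and 13.49, 13.51 and 13.35 at the highest dose, 1.78-fold lower (difference -0.83, SE 0.10, adjusted p 6.25e-05). Cyp1a2, an aryl hydrocarbon receptor target, fell by 0.66 (SE 0.11, adjusted p 0.0011).

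Cyp1a1, the most inducible target of the same receptor, was spread wide among the dosed rats. It read 5.51 to 5.84 in vehicle with a median of 5.75, and 6.41, 6.68 and 7.96 in rats 1, 2 and 3. The groups did not overlap, and the rise of 1.32 (SE 0.27, adjusted p 0.00774) had an adjusted p of 0.0674 without rat 3. The list as a whole held 5 passing genes without rat 3 in place of 8.

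Reductases and dehydrogenases that take on carbonyls, quinones and aldehydes were among the most changed groups: 13 of 46 rose and 1 fell, 7 and 1 of them in every fit. Akr7a3, which reduces aflatoxin dialdehyde, read 11.45, 11.05, 11.51, 11.39 and 11.60 in vehicle and 13.07, 13.10 and 13.74 at the highest dose, a 3.75-fold rise (1.91, SE 0.23, adjusted p 7.1e-05). Aldh1a1, which oxidises retinal and lipid aldehydes, rose 2.57-fold with little spread: 12.30 to 12.49 in vehicle, and 13.69, 13.69 and 13.93 (1.36, SE 0.10, adjusted p 1.27e-07). Nqo1, the quinone reductase used as a marker of NRF2, read 8.0 to 8.56 in vehicle and 9.53, 9.65 and 10.41, a 3.08-fold rise (adjusted p 2.95e-05). Cryl1, a dehydrogenase of the L-gulonate route, rose 3.48-fold (adjusted p 5.14e-07) and Ephx1, the microsomal epoxide hydrolase, by 0.88 (adjusted p 0.00319). Without rat 3 the list held 8 passing genes in place of 14.

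Akr1b7 and Dhrs7l1 of the same group differed from the next lower dose as well as from vehicle. Akr1b7, an aldo-keto reductase, read 4.39, 4.92, 4.87, 4.70 and 4.64 in vehicle and 7.46, 6.23 and 7.12 at the highest dose (2.23, SE 0.24, adjusted p 1.68e-05). The mean at 527.1 mg/kg was 4.84 ± 0.39 (SD, n = 3), and the difference of 2.09 from it passed a direct test (adjusted p 0.00586, limma over all probe sets). Dhrs7l1, a short-chain dehydrogenase, read 12.60, 12.19, 12.41, 12.75 and 12.66 in vehicle and 10.17, 11.03 and 9.99 at the highest dose (-2.12, SE 0.29, adjusted p 0.000237). Its mean at 527.1 mg/kg was still 12.65 ± 0.29 (SD, n = 3), and the difference of -2.25 had an adjusted p of 0.0196. Akr1b7 kept its call against 527.1 mg/kg without each single array of the 2 groups (0.000199 to 0.0459), while Dhrs7l1 lost it without rats 1 or 3 of 527.1 mg/kg (0.0823 and 0.104) and without rats 1 or 3 of the highest dose (0.0525 and 0.0786). With only the 2 groups in the fit, both stood at 0.183.

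Over the whole array 4 probe sets, 0.0129% of those tested, differed between 1054.2 and 527.1 mg/kg, and 1888 did so at an unadjusted p under 0.05. The remaining ones were an uncharacterised locus and a dim probe set of Srxn1, which read 5.73 ± 0.08 in vehicle (SD, n = 5) and 6.43 ± 0.05 at the highest dose (SD, n = 3). That call was lost without rats 1 or 2 of 527.1 mg/kg and without rats 2 or 3 of the highest dose (adjusted p 0.0727 to 0.104). The brighter Srxn1 probe set did not pass against 527.1 mg/kg (0.37, adjusted p 0.718). Against 263.6 mg/kg 56 probe sets passed, 0.180%. For the count against 527.1 mg/kg, leaving out 1 array gave between 1 and 8 probe sets, with the fewest without rat 1 of 527.1 mg/kg, and 8, 7 and 2 without rats 1, 2 and 3 of the highest dose.

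**Figure D3:**
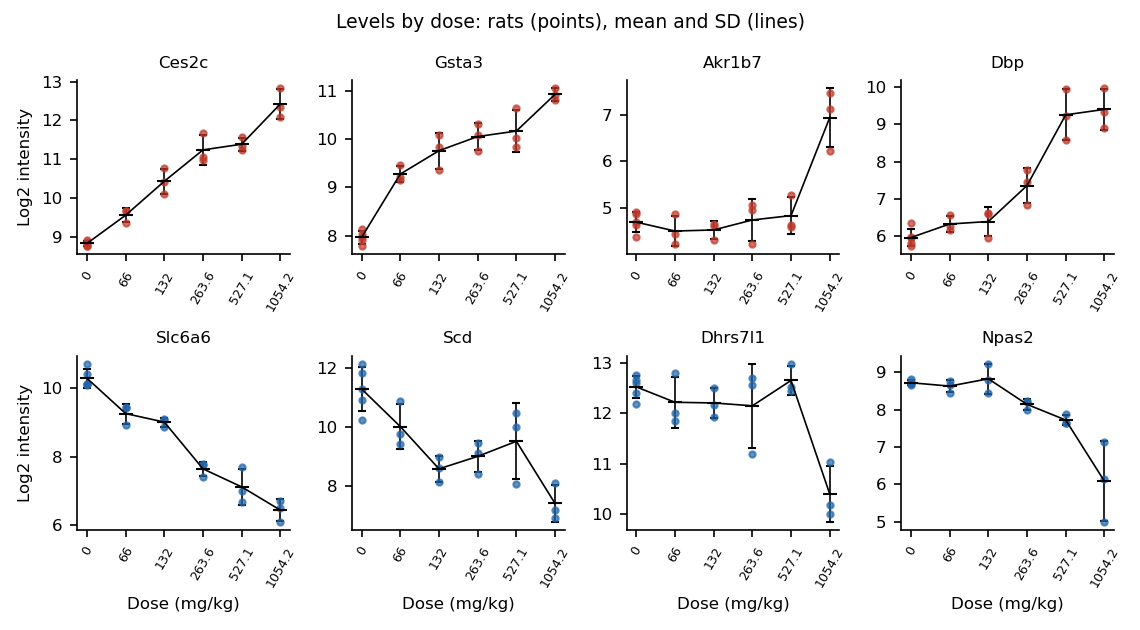
Log2 intensity of 8 genes in each rat (points) against dose in mg/kg, equally spaced, with the mean and SD per dose (5 rats at 0, 3 at each other dose). The means of Akr1b7 and Dhrs7l1 lay near vehicle up to 527.1 mg/kg, at 4.84 and 12.65 there. In Dhrs7l1 some rats at 66, 132 and 263.6 mg/kg lay below every vehicle rat, the lowest at 11.18 at 263.6 mg/kg. The means of Ces2c and Gsta3 lay above vehicle, and that of Slc6a6 below it, at every lower dose.

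Conjugation enzymes that passed were mostly higher. In the list of glutathione transferases and glutathione synthesis 11 of 38 rose and 0 fell, 8 of them in every fit. Gsta3, an alpha-class transferase with the antioxidant response element core shown above, read 7.78, 7.97, 8.04, 8.13 and 7.91 in vehicle and 10.92, 10.80 and 11.06 at the highest dose. The 3 dosed rats lay within 0.26 of each other, and the rise was 7.79-fold (2.96, SE 0.17, adjusted p 2.43e-09). Gsta4, which conjugates 4-hydroxynonenal, rose 2.19-fold (adjusted p 5.29e-06) and Gstt3 2.57-fold (adjusted p 0.000614). Both subunits of the rate-limiting enzyme of glutathione synthesis rose, Gclc by 0.90 (adjusted p 0.000281) and Gclm by 1.01 (adjusted p 0.000477), as did Ggt1, which breaks glutathione down outside the cell, by 1.34 (adjusted p 0.000936). Slc7a11, the cystine carrier, rose by 1.2 with all arrays (adjusted p 0.0303) and did not pass without rat 3 (0.242) or without vehicle rats 1, 2, 4 or 5 (0.053 to 0.0728).

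Of 9 measured genes of glucuronidation 4 rose, 2 of them in every fit, and 2 passed without rat 2 and without rat 3. Ugt2b1, an abundant glucuronosyltransferase, read 12.76, 12.48, 12.46, 12.62 and 12.83 in vehicle and 13.88, 13.97 and 14.04 at the highest dose (2.52-fold, adjusted p 2.17e-07). Ugt2b10 rose 1.65-fold (adjusted p 0.000577). In the list of sulfo-, methyl- and acetyltransferases 3 of 23 rose and 2 fell with all arrays, and the 8 fits without 1 array kept between 1 and 3, with 1 in those without vehicle rat 3, vehicle rat 4 or rat 3 of the dose. Sult2a6, a hydroxysteroid sulfotransferase, was the 1 that passed throughout, at 10.54 to 10.82 in vehicle and 11.77, 12.36 and 12.39 at the highest dose (1.45, SE 0.19, adjusted p 0.00014).

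The antioxidant and NADPH list held 6 rises and 0 falls among 32 genes, but 2 passes without rat 3. The 2 that stood throughout were Srxn1, which repairs oxidised peroxiredoxins, at 0.98 (adjusted p 0.00014), and Me1, the cytosolic malic enzyme that makes NADPH, at 1.23 (adjusted p 0.000916). In the haem list 4 of 28 rose and 0 fell, and 2 of them passed without rat 3. Hmox1, which opens the haem ring, read 8.91 to 9.22 in vehicle and 9.76, 10.36 and 11.04 in rats 1, 2 and 3, so that the dosed rats spanned 1.28 around a mean rise of 1.30 (SE 0.23, adjusted p 0.00302). Blvrb, which reduces the biliverdin that results, rose by 0.77 (adjusted p 0.00157). Alas1, the first step of haem synthesis, was higher by 1.07 (adjusted p 0.00607), a call lost without rat 3 (0.0721).

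Among transporters, most of the efflux pumps that passed were higher and most of the uptake carriers that passed were lower. Among ABC pumps 5 of 29 rose and 1 fell, and 3 passed without rat 3. Abcc3, which exports glucuronides and bile acids to the blood, read 6.38, 6.36, 6.63, 6.83 and 6.72 in vehicle and 9.72, 9.69 and 10.59 at the highest dose, a 10.7-fold rise (3.42, SE 0.28, adjusted p 4.34e-07). Abcb1a, the P-glycoprotein pump, rose 3.02-fold (7.24 to 7.49 in vehicle; 9.01, 9.04 and 8.72 at the highest dose; adjusted p 5.14e-07), with its second probe set at 1.61. Abcc4, a pump of organic anions and nucleotides, rose 2.13-fold (adjusted p 0.00268).

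Of 59 uptake carriers 5 rose and 8 fell, with 1 and 6 in every fit, and 8 in all without rat 3. Slc6a6, the taurine transporter, read 10.41, 10.73, 10.09, 10.13 and 10.13 in vehicle and 6.71, 6.52 and 6.10 at the highest dose. The lowest vehicle rat lay more than 3 log2 units above the highest dosed rat, and the fall was 14.5-fold (-3.86, SE 0.20, adjusted p 4.36e-10). On its second probe set the difference was -2.56. Slc34a2, a sodium-phosphate carrier, fell 3.52-fold (8.80 to 9.81 in vehicle; 8.06, 7.21 and 7.16; adjusted p 0.00205). Slc13a4, a sulfate carrier, fell 2.33-fold (adjusted p 1.16e-05), and Slc16a1, the monocarboxylate carrier MCT1, by 0.93 (adjusted p 0.00016). The 1 rise that held throughout was Slco1a4, an organic anion carrier known as a PXR target, at 0.58 (12.70 to 12.83 in vehicle; 13.31, 13.37 and 13.31; adjusted p 0.00147).

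Slc22a8, the organic anion transporter OAT3, fell on both of its probe sets but with different scatter. The brighter set read 12.08, 11.74, 11.79, 11.75 and 12.03 in vehicle and 10.19, 10.63 and 10.61 at the highest dose (-1.40, adjusted p 3.22e-05). The dimmer set read 8.62 to 9.15 in vehicle and 6.63, 8.41 and 7.61, with nearly the same mean fall of 1.39 (adjusted p 0.00146) and a range of 1.78 among the dosed rats. In taurine, cysteine and methionine metabolism 1 of 39 rose and 4 fell, with 3 passing without vehicle rat 4, 3 without rat 1 and 2 without rat 3 of the highest dose. Gnmt, which consumes S-adenosylmethionine, fell by 0.73 (adjusted p 0.00016) and Sat1, which acetylates polyamines, by 0.73 (adjusted p 0.00307).

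**Figure D4:**
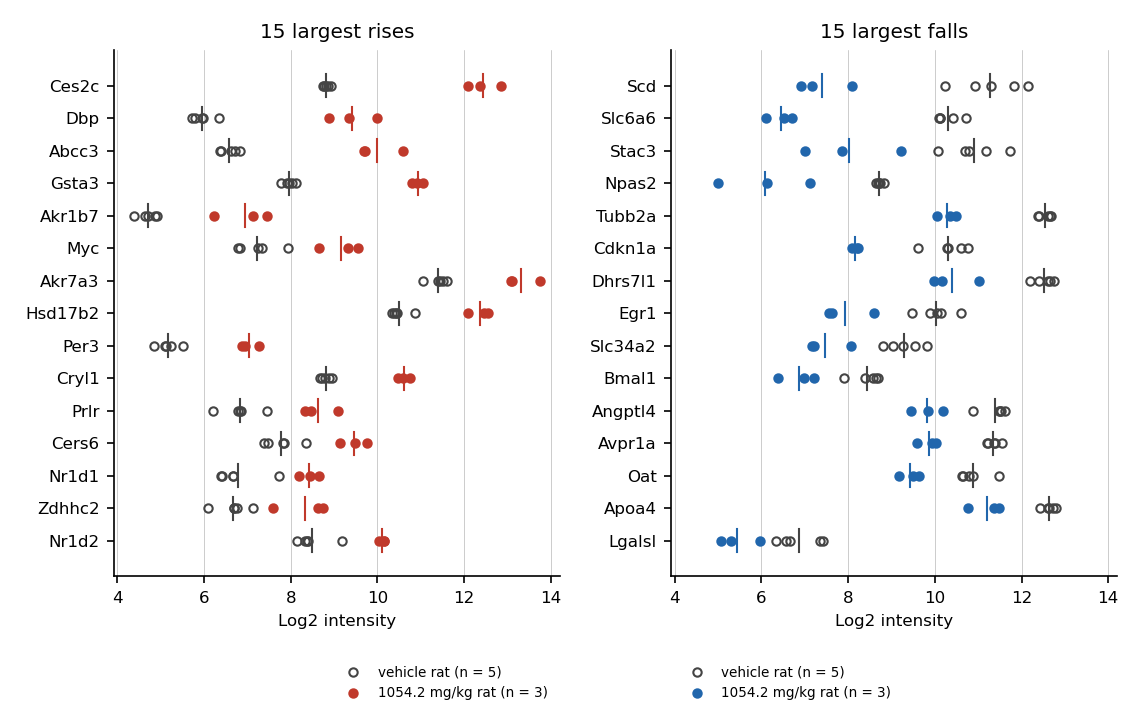
Log2 intensity in each rat for the 15 genes with the largest rises (left) and the 15 with the largest falls (right) among genes that passed in every fit; open circles are the 5 vehicle rats, filled circles the 3 rats at 1054.2 mg/kg, and vertical ticks the group means. Groups that do not overlap were a condition for choosing these genes. Gsta3 and Cdkn1a have dosed rats close together, while Npas2 and Stac3 span 4.99 to 7.13 and 7.0 to 9.23.

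In fatty acid synthesis 1 of 36 genes rose and 4 fell, and 3 passed without rat 3. Scd, the stearoyl-CoA desaturase that makes monounsaturated fatty acids, had the largest fall of all: 11.29, 11.82, 12.15, 10.24 and 10.92 in vehicle against 8.10, 7.17 and 6.91 at the highest dose, 14.8-fold (-3.89, SE 0.48, adjusted p 7.64e-05). Its vehicle rats spanned 1.91, those of Slc6a6 0.64. Elovl5, an elongase of polyunsaturated fatty acids, fell by 0.71 (adjusted p 0.000506), and Lpin2, a phosphatidate phosphatase, rose by 0.91 (adjusted p 0.000722) while its second probe set was at -0.02. Fasn, the fatty acid synthase, was at -0.16 (adjusted p 0.843) and Srebf1, the transcription factor that drives it, at -0.37 (adjusted p 0.404).

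Genes of lipid storage and lipoproteins fell where they passed, with 1 exception. Plin2, the main lipid droplet coat protein of hepatocytes, read 13.06, 13.30, 13.53, 13.33 and 12.98 in vehicle and 12.32, 11.71 and 11.45 at the highest dose (2.67-fold lower, adjusted p 2.84e-05). Fabp5, a fatty acid binding protein, fell 2.66-fold (adjusted p 0.000784), while Plin3, another droplet coat protein, rose 1.54-fold (adjusted p 0.00282). In that list of 26 genes 1 rose and 2 fell, and 5 passed without rat 1. The most positive difference of the list, 1.34, did not pass. Of 27 apolipoprotein and lipoprotein genes 0 rose and 4 fell. Apoa4, an apolipoprotein of triglyceride-rich particles, read 12.42 to 12.80 in vehicle and 11.48, 10.76 and 11.37 (-1.43, adjusted p 0.000493). Angptl4, a secreted inhibitor of lipoprotein lipase and a PPARalpha target, fell 2.96-fold (10.87 to 11.62 in vehicle; 10.19, 9.84 and 9.46; adjusted p 0.000723), and Pltp, the phospholipid transfer protein, by 0.77 (adjusted p 0.00409).

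Of 58 fatty acid oxidation and ketone body genes 8 rose and 4 fell, 4 and 2 of them in every fit, and 6 passed without rat 3. Acsm2 (1.21, adjusted p 0.00152) and Acsm5 (1.05, adjusted p 0.00196), which activate medium-chain and aromatic acids, and Bdh2, a cytosolic hydroxybutyrate dehydrogenase (1.06, adjusted p 0.000477), rose. Acsl5, which activates long-chain acids, fell by 0.70 (adjusted p 0.00122). Cers6, a ceramide synthase with the E-box shown above, rose 3.21-fold (8.36, 7.39, 7.85, 7.48 and 7.82 in vehicle; 9.14, 9.49 and 9.76; adjusted p 3.41e-05), and Sgpl1, which breaks down sphingosine phosphate, by 0.57 (adjusted p 0.00453); these were the 2 rises among 25 sphingolipid genes, with 0 falls.

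None of 29 cholesterol genes passed with all arrays in limma, beside 6 at an unadjusted p under 0.05, and the largest change, that of Pmvk, a kinase of the mevalonate route, was -0.48 (adjusted p 0.0695; 0.0202 without vehicle rat 2). Over the 24 bile acid genes 0 rose and 3 fell with all arrays; the fits kept 0 without rat 3, 1 without rat 2 and 1 without vehicle rat 2. Cyp7a1, the rate-limiting enzyme of bile acid synthesis, read 10.54, 9.74, 11.55, 11.82 and 11.38 in vehicle and 12, 11.86 and 11.78 at the highest dose. Its groups overlapped, and the difference of 0.87 did not pass (adjusted p 0.175).

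The circadian clock list held the largest share of passing genes of any pathway list, 48.1% against a background of 4.83%. Of its 27 genes 8 rose and 5 fell, with 6 and 3 in every fit. The list was chosen with earlier results of these data known, so its rank is a description and no test. The hour at which each liver was taken is not stated in the labels, and its part in the levels of clock genes was not tested. The positive arm was lower. Npas2, a partner of BMAL1, read 8.83, 8.65, 8.68, 8.72 and 8.74 in vehicle, a range of 0.18, and 6.13, 7.13 and 4.99 at the highest dose, a range of 2.14. All 3 dosed rats were below all vehicle rats, 6.26-fold on the means (-2.65, SE 0.28, adjusted p 1.36e-05). Bmal1 read 8.70, 7.90, 8.58, 8.64 and 8.4 in vehicle and 7.22, 6.99 and 6.38 at the highest dose (-1.58, SE 0.19, adjusted p 6.25e-05). Clock itself was at -0.09 (adjusted p 0.866) and did not pass; rat 2 lay above and rats 1 and 3 below every vehicle rat.

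The genes that BMAL1 is known to drive were higher in part. Dbp, a PAR bZIP factor of the clock's output, read 5.80, 6.34, 5.96, 5.97 and 5.73 in vehicle and 9.34, 8.89 and 9.98 at the highest dose, a 10.9-fold rise (3.44, SE 0.27, adjusted p 2.44e-07). Tef, of the same family, rose by 0.94 (adjusted p 0.000143). Nr1d1, the repressor REV-ERBalpha, rose 3.16-fold (6.39 to 7.72 in vehicle; 8.65, 8.44 and 8.19; adjusted p 0.000473), and Nr1d2, REV-ERBbeta, 3.08-fold (8.14 to 9.18; 10.14, 10.14 and 10.04; adjusted p 2.04e-05), where of its 2 other probe sets 1 passed and 1 was at 0.02. Per3 rose 3.64-fold on 1 probe set, from 4.85 to 5.51 in vehicle to 6.95, 6.88 and 7.26 (adjusted p 4.25e-05, limma). Its other probe set was at -0.00 and did not pass. Cry2, a repressor of the loop, rose by 0.84 (adjusted p 0.000281, limma). Per1 (0.19, adjusted p 0.621), Per2 (0.03, adjusted p 0.945) and Cry1 (-0.42, adjusted p 0.301) did not pass. Lgalsl, a galectin-like gene also on this list, fell 2.68-fold (adjusted p 0.00191), and its second probe set also fell.

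Growth signalling and cell-cycle genes gave a mixed picture. Myc, a growth-promoting transcription factor, read 6.78, 6.83, 7.33, 7.25 and 7.93 in vehicle and 8.64, 9.31 and 9.54 at the highest dose (3.84-fold, adjusted p 7.64e-05). Egr1, an immediate early factor, moved down, from 9.47 to 10.61 in vehicle to 8.59, 7.57 and 7.64 (-2.10, SE 0.37, adjusted p 0.00266). Of 46 immediate early and growth factors 5 rose and 1 fell, with 3 and 1 in every fit. Cdkn1a, the p21 brake on cyclin-dependent kinases and a p53 target, read 10.31, 10.28, 10.76, 10.61 and 9.61 in vehicle and 8.23, 8.2 and 8.08 at the highest dose (4.41-fold lower, adjusted p 2.57e-05). Mdm2, which degrades p53 and is also its target, rose by 0.65 (adjusted p 0.000906). In the p53 and brake list 2 of 33 rose and 4 fell, and 3 passed without rat 2.

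Several further genes with large changes belonged to signalling and hormone handling, a grouping made after their values were seen. Egfr, the receptor of epidermal growth factor, read 12.25, 11.96, 12.15, 12.18 and 11.98 in vehicle and 10.76, 11.03 and 11.01 at the highest dose (2.25-fold lower, adjusted p 2.84e-05); of its 2 other probe sets 1 passed. Avpr1a, the vasopressin receptor of hepatocytes, fell 2.80-fold (11.20 to 11.55; 9.94, 10.03 and 9.60; adjusted p 0.00015). Prlr, the prolactin receptor, rose 3.47-fold on 1 probe set (6.21 to 7.46; 9.08, 8.46 and 8.32; adjusted p 0.00327), while its 2 other sets stood at 0.54 and 0.61 and did not pass. Foxa3, a hepatocyte transcription factor, fell by 1.27 (adjusted p 0.00152). Hsd17b2, which inactivates oestradiol and testosterone, rose 3.66-fold (10.34 to 10.86; 12.46, 12.55 and 12.09; adjusted p 9.88e-06). Crym, a thyroid hormone binding protein, fell by 0.92 from vehicle values between 10.96 and 11.02 (10.17, 10.16 and 9.87; adjusted p 8.44e-05).

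Mitosis genes separated the dosed rats from each other. With all arrays 2 of 58 mitosis and G2/M genes rose, Bub1b (0.47, adjusted p 0.0203) and Kif11 (0.70, adjusted p 0.0394), and 0 fell, and neither held in every fit. Without rat 1 of the highest dose 25 of the 58 rose. The other fits gave 6 without vehicle rat 5, 1 without vehicle rats 1, 2 or 4, and 0 without vehicle rat 3, rat 2 or rat 3. The median distance of the list from the vehicle mean was -0.03 in rat 1, 0.67 in rat 2 and 0.62 in rat 3, while the vehicle rats lay between -0.07 and 0.22, with vehicle rat 5 the highest. In 42 of the 58 genes rats 2 and 3 were above every vehicle rat and rat 1 was not. The same pattern was seen in 19 of 42 proteasome genes and 15 of 58 fatty acid oxidation and ketone body genes. Each other list held 9 such genes or fewer, and the share over all genes is not given here.

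Single genes show the same split. Cdk1, the kinase that drives entry into mitosis, read 6.31, 6.51, 6.13, 6.4 and 7.01 in vehicle and 6.10, 7.93 and 7.90 in rats 1, 2 and 3 (0.84, adjusted p 0.293). Mki67, the proliferation marker, read 4.64, 5.12, 5.13, 4.87 and 5.97 in vehicle and 5.46, 6.81 and 6.36 (1.06, adjusted p 0.112; 0.0388 without rat 1 and 0.0456 without vehicle rat 5). S-phase genes were closer together, with median distances of 0.11, 0.20 and 0.14 in rats 1, 2 and 3; 3 of 47 rose and 1 fell with all arrays, 7 passed without rat 1, 2 without rat 3 and 0 without rat 2. Cish, a target of STAT5 downstream of growth hormone, also set rat 1 apart, at 6.61 to 6.83 in vehicle and 6.80, 8.51 and 8.51, and did not pass with all arrays (1.18, adjusted p 0.153); it passed without rat 1 (1.75, adjusted p 0.0245) and with array weights, which gave rat 3 most of the weight (1.63, adjusted p 3.48e-04). Which of the dosed rats stood for the dose in these genes cannot be told from 3 animals.

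Of 39 serine synthesis, one-carbon and ATF4 target genes 13 rose and 1 fell with all arrays. The median distance of the list from the vehicle means was 0.36, 0.33 and 0.53 in rats 1, 2 and 3 and -0.14 to 0.22 in the vehicle rats, so all 3 dosed rats were above the vehicle rats. Without rat 3, where the count over all probe sets also fell from 1024 to 405, 1 gene of the list passed, which was Pck2 (0.65, adjusted p 0.00115), a mitochondrial gluconeogenic enzyme. The count was 9 without vehicle rat 1 and 8 without vehicle rat 2. Psat1, the second enzyme of serine synthesis, read 8.06, 9.15, 10.00, 9.08 and 8.76 in vehicle and 10.88, 10.19 and 11.05 at the highest dose (1.70, adjusted p 0.0121, and 0.0906 without rat 3). Asns, asparagine synthetase, read 7.26 to 9.37 in vehicle and 9.89, 9.70 and 10.69 (1.69, adjusted p 0.0203, and 0.15 without rat 3). The dosed rats were above all vehicle rats in both genes. The vehicle rats spanned 1.94 and 2.11.

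Other stress genes moved one by one. Mt2A, a metallothionein, rose by 1.56 (11.37, 13.51, 12.98, 12.85 and 12.58 in vehicle; 14.29, 14.11 and 14.25; adjusted p 0.00584). Bcl2l11, which codes for the pro-death protein BIM, rose 2.14-fold (adjusted p 0.00034), although its 2 other probe sets did not pass, and Diablo, released from mitochondria in apoptosis, by 0.55 (adjusted p 0.0023); of 34 apoptosis genes 4 rose and 0 fell, and 2 passed without rat 3. Tubb2a, a beta-tubulin, fell 4.78-fold (12.60, 12.40, 12.65, 12.69 and 12.39 in vehicle; 10.48, 10.34 and 10.04; adjusted p 1.27e-07) and Tuba4a by 0.96 (adjusted p 0.00221), the 2 changes among 22 tubulin and microtubule genes. In endoplasmic reticulum folding 1 of 39 rose and 1 fell, near the background, and none held without rat 2 or without rat 3. Of 42 proteasome, 64 ribosome biogenesis, 41 ribosomal protein and 68 respiratory chain genes none passed with all arrays (limma), beside 12, 3, 5 and 5 at an unadjusted p under 0.05. The largest changes there were Psmd5 (0.37, adjusted p 0.0944, and 0.016 without rat 1), Nop58 (-0.50, adjusted p 0.292), Rps9 (-0.29, adjusted p 0.0655, and 0.0293 without rat 3) and Atp5mg (-0.28, adjusted p 0.254).

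Several groups passed in few members. In gluconeogenesis, glycolysis and glycogen 2 of 38 rose and 4 fell, with 3 passing without rat 3; Ldha, lactate dehydrogenase, fell by 0.37 (13.73 to 13.84 in vehicle; 13.45, 13.39 and 13.43; adjusted p 0.00547), and Gyg1, the primer of glycogen, rose by 0.64 (adjusted p 0.00304). In the insulin, growth hormone and IGF list 2 of 41 rose and 3 fell, with none in every fit; the count was 2 without rat 2, without rat 3 or without vehicle rat 3, and 3 without vehicle rats 2 or 4. Of 41 complement and coagulation factors 4 fell and 0 rose, 3 of them the C1q chains listed again among macrophage markers, and 0 passed without rat 3, 1 without rats 1 or 2 of the dose or vehicle rats 1 or 4, and 2 without vehicle rat 2. Of 44 interferon and antigen presentation genes 2 fell and 0 rose, 4.55% in all beside 4.83% over all genes in either direction. In that list 0 or 1 passed without any 1 of vehicle rats 2 to 5 or rats 2 and 3 of the dose.

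A few large falls belonged to none of the main groups. Stac3, an adaptor protein of calcium channels studied in muscle, read 11.73, 10.08, 10.80, 10.70 and 11.17 in vehicle and 7.85, 9.23 and 7.0 at the highest dose (7.32-fold, adjusted p 0.00304). Oat, ornithine aminotransferase, fell 2.75-fold (adjusted p 0.00458) and Kynu, kynureninase of tryptophan breakdown, by 0.97 from vehicle values between 12.32 and 12.43 (11.37, 11.76 and 11.02; adjusted p 0.000118). They were the 2 falls beside 2 rises among 59 urea cycle and amino acid genes, where 8 passed without rat 1 and 2 without rat 3. Chka, choline kinase, fell 2.31-fold (adjusted p 8.8e-05), Steap3, an iron reductase, 1.89-fold (adjusted p 6.88e-05), and Cimap1b 1.92-fold (adjusted p 6.25e-05). Among rises, Htatip2 (2.01-fold, adjusted p 1.57e-06), Osbpl11, an oxysterol binding protein (2.38-fold, adjusted p 6.09e-06), Anxa7, an annexin (2.29-fold, adjusted p 9.88e-06), Creg1 (1.96-fold, adjusted p 2.81e-05) and Zdhhc2, a palmitoyltransferase (3.15-fold, adjusted p 0.000281), passed throughout. Trim24 rose 2.99-fold with an uneven response, at 6.05 to 6.51 in vehicle and 8.72, 7.65 and 7.38 (adjusted p 0.000666).

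Among the lists of non-hepatocyte markers, falls that passed were seen in 42.9% of Kupffer cell, 37.5% of stellate cell and 22.2% of endothelial markers. Over all genes 2.14% passed as lower and 2.69% as higher. In the pancreas list 1 of 18 markers fell (5.56%) and in the cholangiocyte list 1 of 13 rose (7.69%). Each of these is a single marker, too few to set against those shares. In whole-tissue RNA fewer cells of a type and less RNA per cell cannot be told apart. Of 14 Kupffer cell and macrophage markers 0 rose and 6 fell; 0 passed without rat 3, 2 without rat 2, 3 without rat 1, 2 without vehicle rat 1 and 2 without vehicle rat 4. The mean level of the list was 9.66 to 10.03 in the vehicle rats and 9.34, 9.48 and 9.34 in the dosed rats, with no overlap. Such means did not overlap in several other lists either, those of glucuronidation, ABC pumps and hepatocyte markers among them. In 1 of the 14 markers the difference was positive, at 0.62, and it did not pass. Clec4f, a lectin receptor specific to rodent Kupffer cells, read 11.84, 11.90, 11.85, 12.11 and 11.63 in vehicle and 11.42, 11.38 and 11.20 (-0.54, adjusted p 0.0149, and 0.111 without rat 3). C1qb, a complement subunit made by macrophages, was lower by 0.74 (adjusted p 0.025; 0.0628 to 0.0966 without vehicle rats 1 or 4 or without rats 1, 2 or 3 of the dose).

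Stellate cell and fibroblast markers held 9 falls and 0 rises among 24, of which 3 passed without rat 2 and 4 without rat 3. The mean level of the list was 8.10 to 8.37 in vehicle and 7.93, 7.75 and 7.84 at the highest dose. Pdgfra, a receptor of platelet-derived growth factor, read 8.90, 8.82, 8.73, 8.95 and 8.70 in vehicle and 8.02, 8.33 and 8.13 (-0.66, adjusted p 0.00179), and Colec11, a collectin, fell by 0.63 (adjusted p 0.00259); these 2 held in every fit. Among 18 endothelial markers 4 fell and 0 rose, with 0 passing without rat 2 and 1 without rat 3, and list means of 8.69 to 8.99 in vehicle and 8.68, 8.42 and 8.42 at the highest dose. The part of cell content in the changes of the other genes was not tested. None of the 20 hepatocyte markers passed. Their list means were 13.84 to 13.90 in vehicle and 13.79, 13.73 and 13.79 at the highest dose, also with no overlap.

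Blood and bile duct cells gave little. No marker of neutrophils and monocytes (9), T and NK cells (19), B cells (9) or erythroid cells (9), or of fat and mesothelium (11), passed with all arrays in limma, beside 0, 2, 2, 4 and 3 at an unadjusted p under 0.05; Hbb passed without rat 1 (adjusted p 0.00156, and 0.104 with all arrays) and Cidea without vehicle rat 5 (0.0063, and 0.0709 with all arrays). Epcam, an epithelial adhesion molecule, was the 1 of 13 cholangiocyte markers that rose (9.30, 9.29, 8.96, 9.26 and 9.32 in vehicle; 9.87, 9.89 and 9.89; adjusted p 0.00448). Krt18 and Krt8, keratins of epithelial cells, were at 0.24 and 0.23 and did not pass. Cela1, an elastase of the pancreas, was the 1 of 18 pancreas markers that fell (-0.80, adjusted p 0.00482), and Ins1, an insulin gene, was at 0.03.

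**Figure D5:**
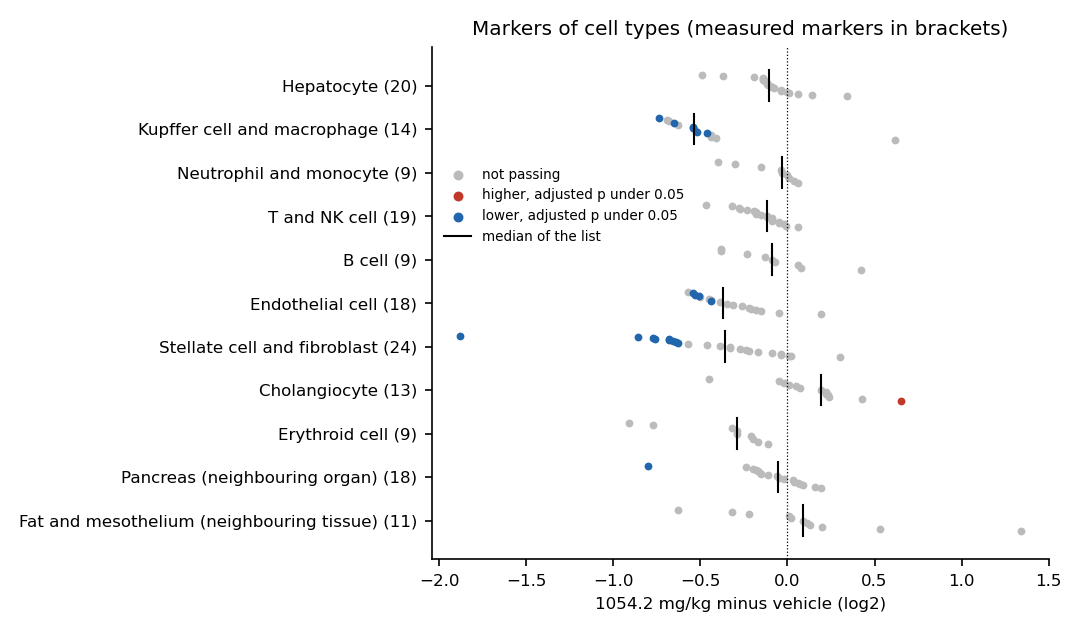
Each point is 1 marker gene, placed by its difference of means, 1054.2 mg/kg minus vehicle on the log2 scale, in rows by cell type with the number of measured markers in brackets; black ticks are list medians. The Kupffer, endothelial and stellate rows lie mostly to the left, with 6, 4 and 9 markers lower at an adjusted p under 0.05, while no hepatocyte marker passed. Positive differences, none of which passed, were seen in 1 Kupffer, 1 endothelial and 3 stellate markers.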

How the data were processed

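Liver RNA of 20 rats was measured on Affymetrix arrays, 1 per rat. The values the authors deposited are log2 intensities of probe sets. RMA made them, per the submitters' processing notes, and its version is not stated there. The 57 control probe sets were left out and 31042 tested, with no brightness filter; 20826 carried 1 gene symbol, 436 several and 9780 none here. All 20 arrays entered the fit with a mean for each dose, in limma 3.58.1 under R 4.3.3, with moderated variances (14 residual and 5.75 prior degrees of freedom), two-sided tests and Benjamini-Hochberg adjustment over all tested probe sets, threshold 0.05. The number of arrays limits the precision. Fits without each array and other settings were run as alternatives, and the script was tested on simulated data.

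Candidates for naming had 1 symbol, passed in the fit with all arrays and in all 8 without 1 array, and did not overlap between groups. Of these the text takes the 15 largest rises and falls, the 10 of smallest p in each direction beside them, up to 4 per gene list, up to 3 per cell type list and the 5 most scattered among dosed rats. Named without that condition were the member of largest change of a list with no candidate, the 2 brightest markers of each cell type, and up to 5 genes in each direction that differed from 527.1 mg/kg and passed against vehicle. Genes given in addition were chosen after their values were seen. The members and lists were chosen with earlier results of these data known. Replicate numbers did not pair the rats. Promoters came from RefSeq, GRCr8. SD refers to rats and SE to the fit.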

Additional observations from a re-analysis of the deposited data

Results flagged for a closer look

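In 11 of the 124 named probe sets 1 of the 5 vehicle rats stood apart from the other 4 by more of the group's range than Dixon's 95% limit allows, a limit that chance passes in about 1 in 20 groups. Vehicle rat 2 did so in 5: Hsd17b2 (10.86), Nr1d1 (7.72) and Nr1d2 (9.18), where it was the highest, and Psmd5 (9.40) and Alb (15.30), where it was the lowest. Vehicle rat 5 was the lowest in Angptl4 (10.87) and Bcl2l11 (7.10). Vehicle rat 3 was the highest in Chka (11.11) and the lowest in Epcam (8.96). Vehicle rat 4 was the highest in Gsta4 (11.53) and vehicle rat 1 in Klf15 (9.60). The calls of the 9 of these genes that passed at 1054.2 mg/kg held without that rat. The rule for naming candidates required this, so it adds no support.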

How the results depend on the processing

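No named gene that passed turned its direction under any alternative run, and 24 of the 124 named probe sets changed sides of the threshold under at least 1. Candidates were named because they passed in every fit without 1 array, so this steadiness follows in part from the naming rule. Against vehicle, other scalings, filters, priors and the RNA index as a covariate gave 909 to 1445 passing probe sets beside 1024. Array weights, which gave rat 3 of the highest dose a weight of 6.72 and rats 1 and 2 weights of 0.54 and 0.45, gave 6439 (3426 higher and 3013 lower). Leaving out 1 array gave 405 to 1069 (233 to 707 higher, 172 to 421 lower). The replicate block, where same-numbered rats correlated at -0.026, -0.108 and 0.039, gave 614 (359 higher and 255 lower). Against 527.1 mg/kg, in place of 4, only the 2 groups gave 0, no dim probe sets 2, array weights 656, the RNA index 8, the replicate block 1 and leaving out 1 array 1 to 8. Against 263.6 mg/kg, in place of 56, only the 2 groups gave 2, array weights 2217 and leaving out 1 array 12 to 120. The causes were not tested. C1qa and Dnase1l3 did not pass with array medians centred (adjusted p 0.0512 and 0.0519). The number of rats limits these counts.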
